A study of Rattus norvegicus with 20 samples.

Results

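Gfap, S100b, Aqp4, Slc1a3, Slc1a2 and Apoe are genes commonly read as markers of astrocytes, and their levels were followed through all 20 libraries of cultured adult rat hippocampal neural stem cells. They were chosen by name and found by 6 Ensembl IDs among the 32623 genes of the count table: ENSRNOG00000002919 (Gfap), ENSRNOG00000001295 (S100b), ENSRNOG00000016043 (Aqp4), ENSRNOG00000016163 (Slc1a3), ENSRNOG00000005479 (Slc1a2) and ENSRNOG00000018454 (Apoe). The symbols came with this choice, and no table used here pairs rat Ensembl IDs with symbols, so the pairing was not checked against one. Of the 6 genes, 4 had enough reads to be tested. Aqp4 had no read in any library and Slc1a2 had at most 5, so the reads of 2 of the 6 genes that would mark a mature astrocyte were at or near 0. Whether the annotation used for counting covers the 3′ ends of their transcripts was not tested, so absence of the transcripts was not shown.

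Astrocytes are the glia that hold synapses, vessels and the extracellular fluid in balance. GFAP is the protein of their intermediate filaments, S100B a calcium-binding protein, AQP4 the water channel of their end-feet, SLC1A3 (GLAST) and SLC1A2 (GLT-1) the transporters that clear glutamate, and APOE the main lipid carrier they secrete. Several of these genes are not confined to astrocytes: GFAP, GLAST and APOE are also made by the radial glia-like stem cells of the adult hippocampus, and S100B is found in cells of the oligodendrocyte lineage. Wnt signalling through β-catenin, which accumulates when the kinase GSK-3 is held back, is best known in this niche for its part in neuronal differentiation.

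The cells came from Fisher 344 rats and were either wild-type or carried optoWnt, a light-controlled switch for the Wnt pathway, introduced by transduction at an MOI of 0.5 with selection in puromycin. They were expanded with the growth factor FGF-2. For the experiment they were kept in a basal medium with 0.5% serum, and β-catenin signalling was switched on with CHIR99021 (an inhibitor of GSK-3, labelled 3 mM, where the micromolar range is usual in culture and the labels do not settle the unit), with the ligand Wnt3a (100 ng/mL) or with light. Every stimulated library was made from optoWnt cells, whichever inducer was used. The unstimulated libraries were 1 wild-type and 1 optoWnt library at each of 0, 3 and 5 d. The 4 of 3 and 5 d have ON in their titles, and the labels do not say if light was shone on them. Stimulation lasted 1 d or 3 d without a break (3 libraries each, 1 per inducer) or 5 d (CHIR99021 and Wnt3a only), or was given for 1 d and then withdrawn for 1 d or 2 d (1 d ON 1 d OFF and 1 d ON 2 d OFF, 3 libraries each, 1 per inducer). No combination of genotype, inducer and profile was sequenced more than once.

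The 3′ ends of messenger RNA were counted, so a count does not grow with the length of the transcript. A level is given as CPM, the reads of a gene per 1000000 reads of its library, and intervals on levels are exact 95% Poisson intervals, which cover counting error only. Totals ran from 696463 reads (Wnt3a, 1 d ON) to 5935681 (optoWnt, 3 d). On the first principal component of all genes kept (29.4% of the variance), 6 libraries stood apart from the other 14: wild-type at 0 and 5 d, Wnt3a at 5 d ON, light at 3 d ON, and CHIR99021 and Wnt3a at 1 d ON 2 d OFF. Tests that rest on them were repeated without them, except that of constant light, whose 1 library is among them. These refits have few libraries: 14 with 3 residual degrees of freedom, or 6 with 1 in the fit of constant stimulation, and an arm left with 1 library is assumed to vary like the other groups. The planned lists of other astrocyte, neuronal, oligodendrocyte, stem-cell and microglial markers are written as symbols and could not be looked up, so the makeup of these cultures was not measured here. In such bulk RNA a change in the number of cells that express a gene and a change in RNA per cell cannot be told apart.

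The 250 bases before the annotated start of the 3 members whose levels varied most in absolute terms are shown to give the regulatory sequence beside the values, since Wnt/β-catenin acts through TCF/LEF factors and the cytokine route to Gfap through STAT factors. They are RefSeq sequences of the build GRCr8, all on the minus strand and written 5′ to 3′, at chr10:88361662-88361911 (Gfap), chr20:12381082-12381331 (S100b) and chr2:59557809-59558058 (Slc1a3, the first of its 3 listed starts). The counts were made on another build, Rnor_6.0. Capitals mark a match to a TCF/LEF core.
Gfap: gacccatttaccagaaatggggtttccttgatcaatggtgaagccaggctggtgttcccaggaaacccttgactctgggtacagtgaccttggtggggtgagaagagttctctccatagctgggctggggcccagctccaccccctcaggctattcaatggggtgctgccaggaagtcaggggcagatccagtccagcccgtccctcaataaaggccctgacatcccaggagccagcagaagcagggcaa
S100b: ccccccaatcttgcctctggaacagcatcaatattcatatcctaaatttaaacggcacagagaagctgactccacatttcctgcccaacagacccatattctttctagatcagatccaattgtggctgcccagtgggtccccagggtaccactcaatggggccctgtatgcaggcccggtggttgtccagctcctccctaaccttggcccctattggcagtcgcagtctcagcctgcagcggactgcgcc
Slc1a3: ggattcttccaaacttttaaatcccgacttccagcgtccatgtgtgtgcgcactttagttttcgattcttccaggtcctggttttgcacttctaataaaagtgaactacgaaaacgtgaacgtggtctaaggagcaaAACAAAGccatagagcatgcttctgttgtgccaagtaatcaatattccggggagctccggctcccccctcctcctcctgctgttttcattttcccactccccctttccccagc

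The TCF/LEF cores searched were CTTTGNN with A or T at both N, on both strands, and the STAT core was TTCNNNGAA, which is its own reverse complement. All 6 genes matched the promoter table by symbol. The window of Slc1a3 held 1 TCF/LEF core, from 113 to 107 bases before the start, and the windows of Gfap and S100b held none. No STAT core lay in any of these 3 windows. Among 27457 genes' first windows of the same 250 bases, 14.7% held a TCF/LEF core and 7.5% a STAT core. These matches describe letters only.

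In unstimulated cells, Gfap and S100b were higher, and Slc1a3 and Apoe lower, at 3 and 5 d than at 0 d, in both genotypes. Gfap was undetected at 0 d and passed the test at 5 d. Slc1a3 was the only glutamate transporter among the members seen in quantity. It fell to 0.154 (3 d) and 0.148 (5 d) of its pooled 0 d level and passed the test at both times. S100b and Apoe did not overlap their 0 d values, and did not pass the test.

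Gfap had 0 reads in the wild-type and in the optoWnt library at 0 d, which allows a level of up to 1.25 and 0.853 CPM, the level of 3 reads. At 3 d it stood at 3.90 CPM (15 reads) in wild-type and 3.54 CPM (21 reads) in optoWnt cells, and at 5 d at 7.76 CPM (16 reads) and 5.70 CPM (22 reads). The groups at 0, 3 and 5 d did not overlap, with the libraries of 5 d above those of 3 d. The step from 3 to 5 d was not tested, nor its overlap counted over all genes, and its counting intervals overlapped. They were 2.18 to 6.43 CPM at 3 d and 4.43 to 12.6 CPM at 5 d in wild-type cells. In optoWnt cells they were 2.19 to 5.41 CPM and 3.57 to 8.625 CPM. Against 3 reads over the pooled 0 d libraries, Gfap was at least 12.6-fold higher at 5 d (38 reads in all) and at least 7.26-fold higher at 3 d (36 reads). The edgeR quasi-likelihood test called the rise at 5 d (adjusted p = 0.016, fitted log2 change 7.63 ± 1.62 SE, n = 2 against 2) and not that at 3 d (adjusted p = 0.060, 6.75 ± 1.69). With 0 reads in one arm the fitted values depend on the prior count. The call at 5 d was lost without the wild-type 0 d (adjusted p = 0.22 by edgeR), wild-type 5 d (0.13) or optoWnt 0 d library (0.095), and without the 6 libraries that stood apart (0.21).

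S100b was abundant throughout and ranked 54 of the 32623 genes by its median level of 1160 CPM. At 0 d it read 390 CPM in wild-type and 388 CPM in optoWnt cells. At 3 d it stood at 924 and 1829 CPM, and at 5 d at 1017 and 2102 CPM, in the same order. Every later unstimulated library lay above both 0 d libraries, and optoWnt lay above wild-type at 3 and 5 d. Fitted log2 changes were 1.80 ± 0.50 at 5 d (edgeR adjusted p = 0.053) and 1.58 ± 0.49 at 3 d (adjusted p = 0.13), and neither passed. Without the 6 libraries that stood apart both did, with adjusted p = 0.020 at 5 d (2.40) and 0.033 at 3 d (2.26) by edgeR. That refit compares 1 library with 1 at 5 d and 2 with 1 at 3 d, and the spread comes from the other groups.

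Slc1a3 stood at 75.5 CPM (181 reads) in wild-type and 82.4 CPM (290 reads) in optoWnt cells at 0 d. At 3 d it was at 16.1 and 9.77 CPM, and at 5 d at 5.33 and 15.3 CPM. All 4 later libraries lay far below both 0 d libraries, while the genotypes changed places between 3 and 5 d. By edgeR, Slc1a3 fell by 3.02 ± 0.55 on the log2 scale at 5 d (adjusted p = 0.0062) and fell by 2.73 ± 0.53 at 3 d (adjusted p = 0.014). Without the libraries that stood apart the fitted changes were -2.47 at 5 d (adjusted p = 0.035 by edgeR, 1 library against 1) and -3.05 at 3 d (0.020, 2 against 1), again with the spread of other groups. The call at 5 d was lost without wild-type 0 d (adjusted p = 0.14 by edgeR) or wild-type 5 d (0.15). The call at 3 d was lost without any 1 of its 4 libraries, with edgeR adjusted p = 0.37 without wild-type 0 d, 0.092 without wild-type 3 d, 0.091 without optoWnt 0 d and 0.22 without optoWnt 3 d.

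Apoe, at 11.3 CPM (27 reads) in wild-type and 9.38 CPM (33 reads) in optoWnt cells at 0 d, was a low transcript. It read 3.64 and 1.69 CPM at 3 d, and 1.46 and 2.59 CPM at 5 d, on 3 to 14 reads a library. The 0 d libraries were higher than all 4 later ones. The fitted log2 change was -2.32 ± 0.75 at 5 d (edgeR adjusted p = 0.10) and -2.12 ± 0.72 at 3 d (adjusted p = 0.18), and neither passed.

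Of the 4 members tested, 2 were called at 5 d against 0 d (1 higher, 1 lower), where 4.52% of all 12190 genes were called. At 3 d against 0 d 1 was called, lower, where 2.07% of all genes were. None of the 4 overlapped between arms at either time, as was so for 45.6% of all genes at 5 d and 49.3% at 3 d. Both comparisons use the same 0 d libraries. The median fitted log2 change of the 4 was -0.26 at 5 d and -0.27 at 3 d, with pairs of members on either side of 0, and that over all genes was 0.02 and 0.03. With Gfap at its lower bound these medians are the same, since it stays the highest of the 4.

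**Figure D1:**
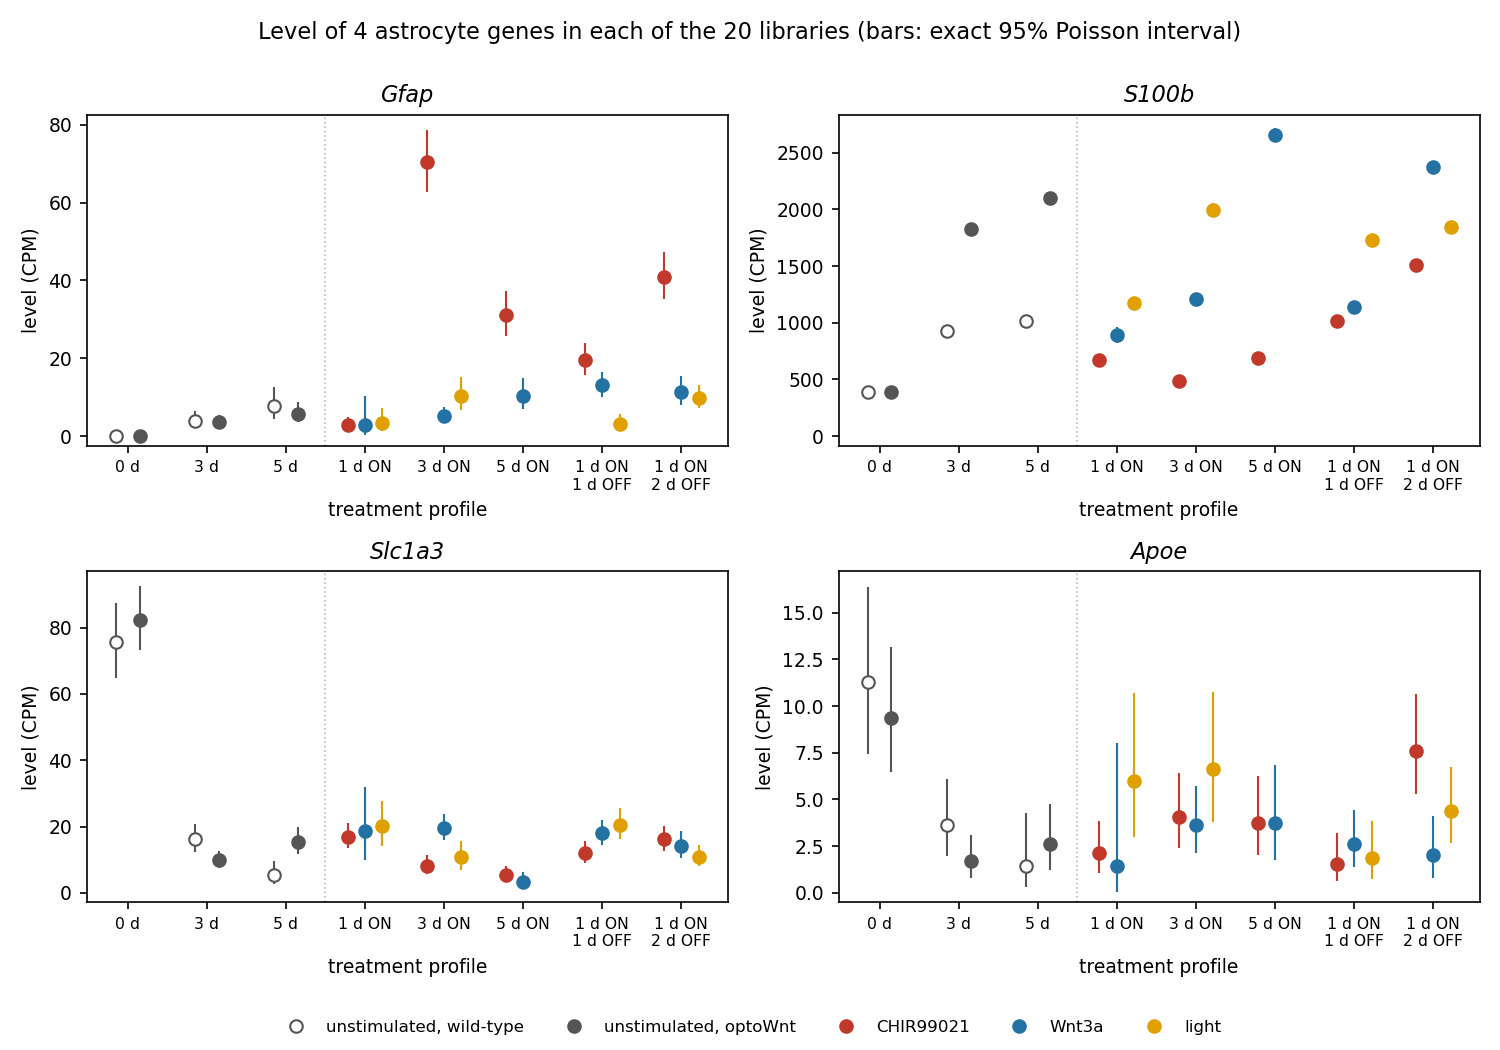
Level of Gfap, S100b, Slc1a3 and Apoe in CPM (y axes, each on its own scale) in the 20 libraries, by treatment profile (x axis). Points are single libraries coloured by inducer, open for wild-type cells, and bars are exact 95% Poisson intervals. Gfap under CHIR99021 reached 70.4 CPM at 3 d ON, S100b under CHIR99021 was the lowest of its profile throughout, and Slc1a3 at 0 d (75.5 and 82.4 CPM) stood above every later library.

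Constant stimulation for 3 or 5 d was compared with unstimulated cells of the same days, inducer by inducer. Under CHIR99021 Gfap was 11.1-fold higher in pooled reads than without a stimulus and passed the test, while S100b was lower than in each of the 4 unstimulated libraries of 3 and 5 d and did not pass. Under Wnt3a and light neither gene passed. Slc1a3 and Apoe did not pass under any inducer.

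Gfap read 70.4 CPM (311 reads, interval 62.8 to 78.7) under CHIR99021 at 3 d ON and 31.1 CPM (117 reads, interval 25.7 to 37.3) at 5 d ON. Under Wnt3a it read 5.03 CPM at 3 d ON and 10.4 CPM at 5 d ON, and under light 10.3 CPM at 3 d ON. The unstimulated libraries of 3 and 5 d gave 3.54 to 7.76 CPM. Both CHIR99021 libraries thus lay above all others. Wnt3a overlapped the unstimulated range pooled over the 2 days, and the light library lay above it. Taken by day, Wnt3a lay above both unstimulated libraries at 3 d (3.54 and 3.90 CPM) and at 5 d (5.70 and 7.76 CPM). Light lay above both at 3 d. How many of all genes do so on single days was not counted. The mean was 50.8 ± 27.8 CPM (SD, n = 2) under CHIR99021 and 5.22 ± 1.94 CPM (SD, n = 4) without a stimulus, and the fitted log2 change of 3.59 ± 0.74 SE was called by edgeR (adjusted p = 0.047). The call lay close to the threshold. By edgeR it was lost without CHIR99021 3 d ON (2.33, adjusted p = 0.64), CHIR99021 5 d ON (4.45, adjusted p = 0.059), optoWnt 3 d (0.19), wild-type 5 d (0.093), wild-type 3 d (0.057) or light 3 d ON (0.050), and on library totals without TMM scaling (0.060). Without the 3 of the 9 libraries in this fit that stood apart the value was 3.43. The p of that refit (adjusted p = 7.9e-07 by edgeR) rests on 6 libraries with 1 residual degree of freedom, in which 1512 genes were called against 201 with all 9, so it adds nothing to the call.

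S100b read 485 CPM under CHIR99021 at 3 d ON and 688 CPM at 5 d ON. Wnt3a gave 1212 and 2657 CPM, and light 1995 CPM at 3 d ON. The unstimulated libraries of those days ran from 924 to 2102 CPM over both genotypes, and CHIR99021 lay below all of them. At 3 d they read 924 CPM (wild-type) and 1829 CPM (optoWnt), with Wnt3a between these and light above both. At 5 d they read 1017 CPM (wild-type) and 2102 CPM (optoWnt), with Wnt3a above both. The mean was 587 ± 144 CPM (SD, n = 2) under CHIR99021, in optoWnt cells only. It was 1468 ± 586 CPM (SD, n = 4) over both genotypes without a stimulus. The fitted log2 change, with a term for genotype, was -1.76 ± 0.49 and was not called by edgeR (adjusted p = 0.12). It was called without the Wnt3a 5 d ON library (-1.75, adjusted p = 0.045 by edgeR), and in the same refit of 6 libraries (-1.73, adjusted p = 0.012).

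For Wnt3a the fitted log2 changes were 0.75 ± 0.70 for Gfap (edgeR adjusted p = 0.88) and -0.07 ± 0.48 for S100b (adjusted p = 0.98). For light, with 1 library assumed to vary like the rest, they were 1.39 ± 0.88 for Gfap (edgeR adjusted p = 0.65) and 0.28 ± 0.59 for S100b (adjusted p = 0.89). Neither gene was shown to be unchanged: an error of this size leaves room for changes of more than 2-fold in Gfap. The direct test of CHIR99021 against Wnt3a, both constant, gave 2.84 ± 0.73 for Gfap (edgeR adjusted p = 0.16) and -1.69 ± 0.49 for S100b (adjusted p = 0.21). Neither difference passed. The libraries of the 2 inducers did not overlap in these genes nor in Apoe, 3 of the 4 members, as was so for 37.3% of all genes. The Gfap difference was called without the optoWnt 5 d library (2.83, adjusted p = 0.041 by edgeR). In the refit of 6 libraries, with 1 Wnt3a library and the spread taken from other groups, it was 3.59 (adjusted p = 4e-04 by edgeR), and genes called rose from 5 to 425.

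Slc1a3 stayed low under constant stimulation. It read 8.15 and 5.32 CPM under CHIR99021 at 3 and 5 d ON, 19.5 and 3.34 CPM with Wnt3a, and 10.7 CPM with light at 3 d ON. These values spread around the unstimulated range of 5.33 to 16.1 CPM, with the lowest of all 20 libraries among them (Wnt3a, 5 d ON, 9 reads). Apoe read 4.08 and 3.72 CPM under CHIR99021, Wnt3a gave 3.62 and 3.71 CPM, light gave 6.61 CPM, and unstimulated cells ran from 1.46 to 3.64 CPM. Under CHIR99021 the fitted log2 changes were -1.02 ± 0.75 for Slc1a3 (edgeR adjusted p = 0.75) and 0.90 ± 0.82 for Apoe (adjusted p = 0.84).

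Over all 3 inducers together, constant stimulation called 0 of the 4 members by edgeR (0.197% of all 12190 genes were called), and DESeq2 also called 0 (2.16% of all genes). Only Gfap had an unadjusted p under 0.05, as did 9.89% of all genes. Fitted log2 changes were 1.86 ± 0.69 for Gfap (edgeR adjusted p = 0.37), -0.30 ± 0.36 for S100b (0.81), -0.68 ± 0.41 for Slc1a3 (0.61) and 1.11 ± 0.59 for Apoe (0.56). Under CHIR99021 alone 1 of 4 was called, where 1.74% of all 11566 genes were, and DESeq2 called 2, with 4.91% of all genes. Of the 4, 3 did not overlap between arms, as was so for 31.1% of all genes. The median of the 4 members was -0.06 under CHIR99021 and that of all genes -0.02.

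Under Wnt3a alone edgeR and DESeq2 both called 0 of 4, where 0.00865% and 0.354% of all genes were called. None had an unadjusted edgeR p under 0.05, against 4.87% of all genes. Under light alone both tools likewise called 0 of 4, where 0% and 0.0421% of all genes were called, and 0 had an unadjusted edgeR p under 0.05, against 6.92% of all genes. Between CHIR99021 and Wnt3a edgeR called 0 of 4 and 0.0432% of all genes. DESeq2 called Gfap and S100b and 3.48% of all genes, and the same 2 members and 11.2% of all genes had an unadjusted edgeR p under 0.05.

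**Figure D2:**
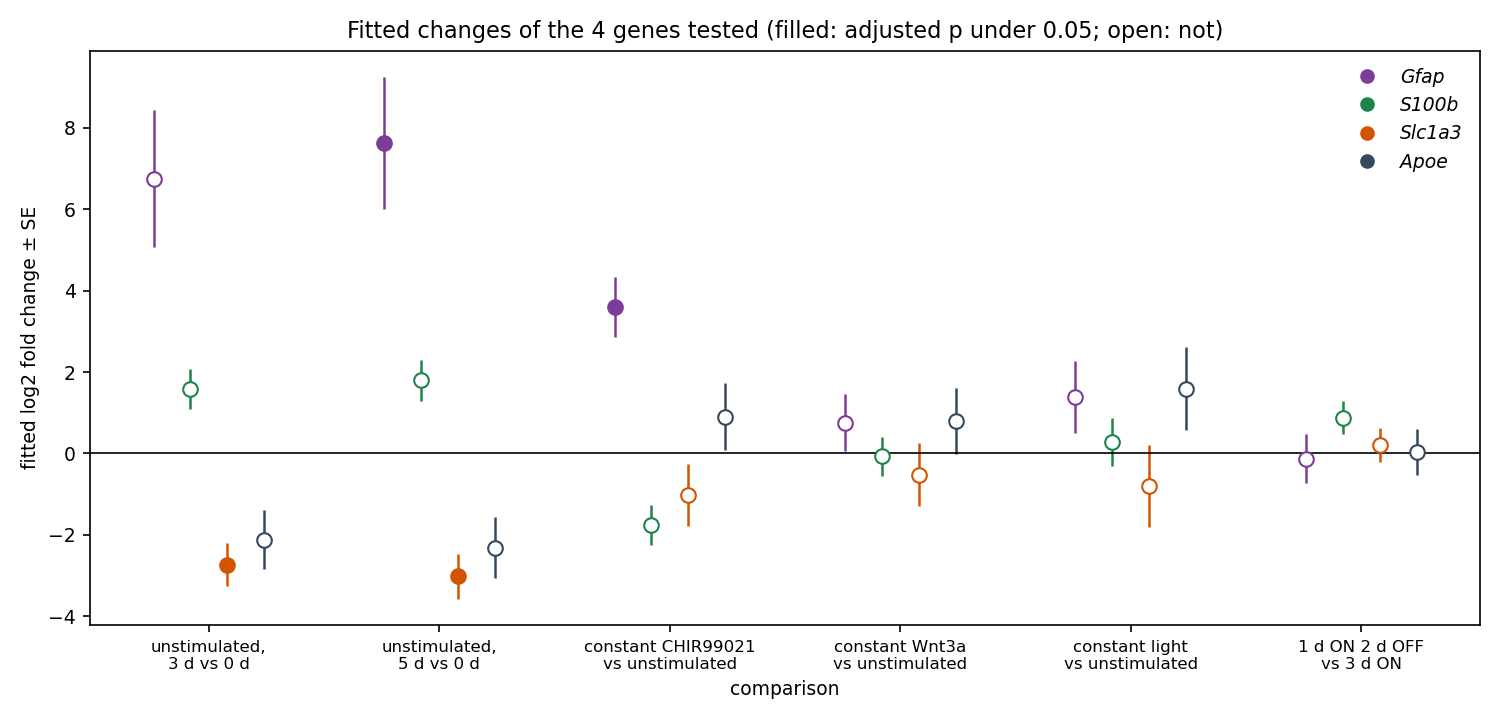
Fitted log2 fold change of Gfap, S100b, Slc1a3 and Apoe (y axis) in 6 comparisons (x axis), with bars of 1 SE and filled points where the edgeR adjusted p is under 0.05. Gfap at 5 d against 0 d (7.63), Slc1a3 at 3 d (-2.73) and 5 d (-3.02) and Gfap under constant CHIR99021 (3.59) are the 4 filled points.

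At 2 d after withdrawal of the stimulus, Gfap lay above the unstimulated level of 3 d in every library, with CHIR99021 again highest, but no member passed the tests. At 1 d ON, before withdrawal, Gfap read 2.93 CPM (CHIR99021), 2.87 CPM (Wnt3a, 2 reads) and 3.27 CPM (light, 6 reads). The Wnt3a interval ran from 0.348 to 10.4 CPM, so these counts do not show the inducers to be alike. At 1 d ON 1 d OFF Gfap read 19.5, 13.0 and 3.20 CPM in the same order of inducers, and at 1 d ON 2 d OFF 41.0, 11.2 and 9.81 CPM. These profiles ended on days 1, 2 and 3, and no unstimulated library of 1 or 2 d is among the 20. Along them, time and withdrawal cannot be told apart. The 3 libraries of 1 d ON 2 d OFF lay above both unstimulated libraries of 3 d, with a mean of 20.7 ± 17.6 CPM (SD, n = 3) against 3.72 ± 0.256 CPM (SD, n = 2). Of all genes, 16.9% did not overlap between these arms. The difference in Gfap (2.30 ± 0.82 on the log2 scale) was not called by edgeR (adjusted p = 0.64). Against 3 d ON, at 28.6 ± 36.3 CPM (SD, n = 3), Gfap differed by -0.13 ± 0.60 (edgeR adjusted p = 0.96), and the direction turned when the CHIR99021 3 d ON library was left out (0.77).

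S100b read 671, 892 and 1175 CPM at 1 d ON, 1016, 1142 and 1726 CPM at 1 d ON 1 d OFF, and 1513, 2377 and 1843 CPM at 1 d ON 2 d OFF, for CHIR99021, Wnt3a and light. Each inducer's S100b was higher at 1 d ON 2 d OFF than at 1 d ON. The 3 d ON libraries (485, 1212 and 1995 CPM) overlapped those of 1 d ON 2 d OFF, with CHIR99021 and Wnt3a lower under the constant stimulus and light higher. The fitted log2 difference of 1 d ON 2 d OFF from 3 d ON was 0.88 ± 0.40 (edgeR adjusted p = 0.54), and that from unstimulated cells at 3 d was 0.26 ± 0.47 (adjusted p = 0.86). After withdrawal the sets of S100b and unstimulated values overlapped.

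Slc1a3 in these libraries stayed between 10.9 and 20.5 CPM. It read 17.0, 18.7 and 20.2 CPM at 1 d ON, 12.1, 18.0 and 20.5 CPM at 1 d ON 1 d OFF, and 16.1, 14.1 and 10.9 CPM at 1 d ON 2 d OFF, for CHIR99021, Wnt3a and light. All 9 were far under the 0 d level, as early as 1 d. Apoe ran from 1.44 CPM (Wnt3a, 1 d ON, 1 read) to 7.61 CPM (CHIR99021, 1 d ON 2 d OFF, 34 reads), below both 0 d libraries in all 9.

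For 1 d ON 2 d OFF against 3 d ON, edgeR and DESeq2 called 0 of 4 members, and 0% and 0.395% of all genes. S100b was the 1 member at an unadjusted edgeR p under 0.05, with 8.98% of all genes. Against unstimulated cells at 3 d both tools called 0 of 4 and 0% of all genes. Gfap was the 1 member at an unadjusted edgeR p under 0.05, with 7.37% of all genes.

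Over the profiles, CHIR99021 took opposite places in Gfap and S100b, though no difference between inducers passed the edgeR test. Gfap under CHIR99021 was the highest of its profile in 4 of 5 profiles, with 1 d ON the exception, and S100b under CHIR99021 was the lowest in 5 of 5. The 5 d ON profile has only 2 libraries. Slc1a3 under CHIR99021 was the highest in 2 profiles and the lowest in 3, and Apoe the highest in 2 and the lowest in 1. How many of all genes take such places was not counted, so these orders are descriptions only. The lowest, median and highest Gfap levels in the 5 CHIR99021 libraries were 2.93, 31.1 and 70.4 CPM, against 2.87, 10.4 and 13.0 CPM in the 5 Wnt3a libraries and 3.20, 6.54 and 10.3 CPM in the 4 light libraries. The ranges of the 3 inducers overlapped. For S100b the same values were 485, 688 and 1513 CPM under CHIR99021, 892, 1212 and 2657 CPM with Wnt3a, and 1175, 1784 and 1995 CPM with light.

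In the additive fit over all 20 libraries, CHIR99021 exceeded light in Gfap by 1.98 ± 0.56 on the log2 scale (edgeR adjusted p = 0.099), and its S100b differed from light by -1.12 ± 0.33 (adjusted p = 0.10). Neither passed by edgeR, while DESeq2 called both (adjusted p = 0.017 and 0.021). CHIR99021 against Wnt3a gave 1.65 ± 0.50 for Gfap (edgeR adjusted p = 0.36) and -0.86 ± 0.31 for S100b (adjusted p = 0.47). Wnt3a against light gave 0.34 ± 0.58 for Gfap (edgeR adjusted p = 0.87) and -0.26 ± 0.34 for S100b (adjusted p = 0.82). So edgeR called 0 of 4 members in each of these 3 comparisons, while 1.39%, 0.0328% and 0.0082% of all genes were called. At an unadjusted edgeR p under 0.05 there were 2, 2 and 0 members, and 16.3%, 8.15% and 11% of all genes. DESeq2 called 2, 0 and 0 members, and 6.1%, 1.29% and 1.38% of all genes.

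The balance of the 2 genes within a library needs no scaling between libraries. Per 1000 S100b reads there were 145 Gfap reads under CHIR99021 at 3 d ON, 45.2 at 5 d ON, 27.1 at 1 d ON 2 d OFF and 19.2 at 1 d ON 1 d OFF. Wnt3a at 1 d ON 1 d OFF followed with 11.4. The other 15 libraries had between 0 (both at 0 d) and 7.63 (wild-type, 5 d). As a share of the reads of both genes, Gfap made up 12.7% under CHIR99021 at 3 d ON (exact binomial 95% interval 11.4 to 14.1%) and 0.757% in the wild-type 5 d library (0.433 to 1.23%). The 4 CHIR99021 libraries after the first day were the highest of the 20, and at 1 d ON CHIR99021 (4.36) lay within the range of unstimulated cells at 3 and 5 d (1.93 to 7.63). The ratio restates the orders of Gfap and S100b given above and is no separate evidence for them. The binomial intervals cover counting error only, not the spread between libraries.

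**Figure D3:**
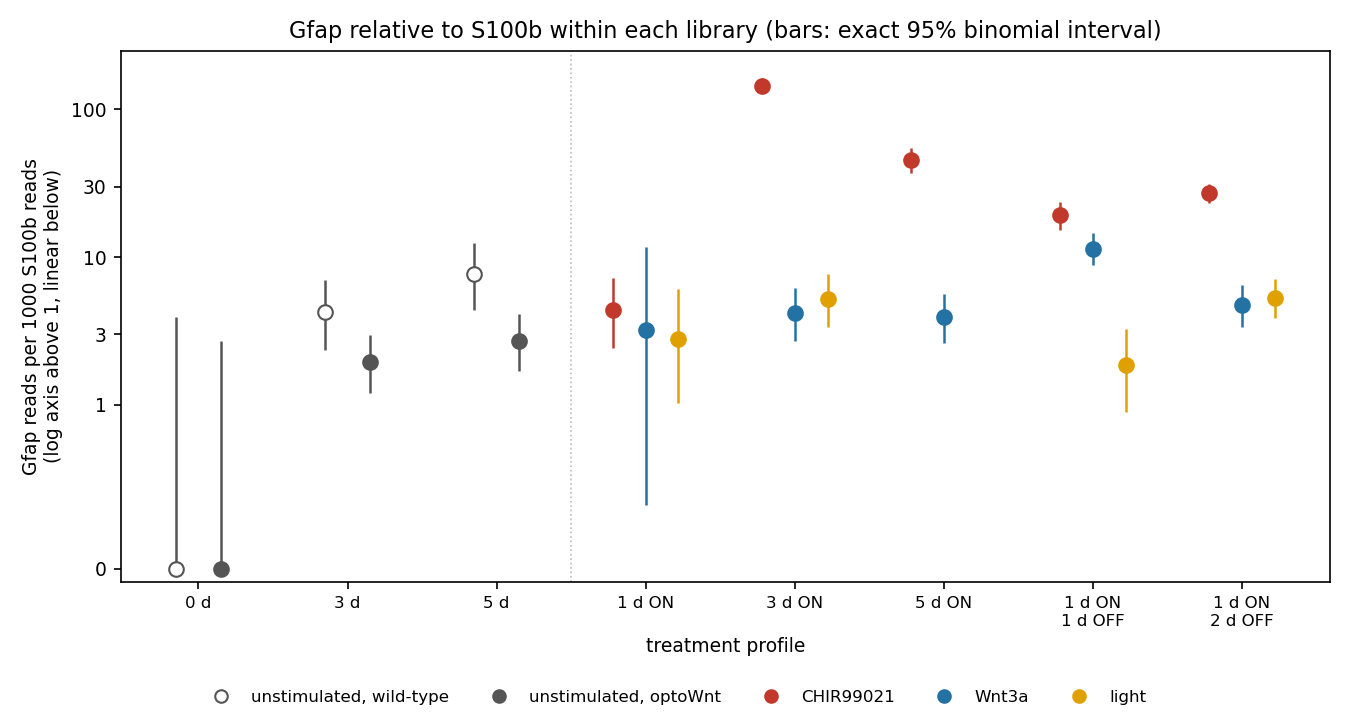
Gfap reads per 1000 S100b reads (y axis, logarithmic above 1 and linear below) in each library, by treatment profile (x axis), with exact 95% binomial intervals as bars. Points are single libraries coloured by inducer, open for wild-type cells. CHIR99021 stands highest at 3 d ON (145) and is at 4.36, among the rest, at 1 d ON.

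Genotype was tested in unstimulated cells only, 3 optoWnt against 3 wild-type libraries. S100b was higher in optoWnt cells at 3 and 5 d and level at 0 d, with a fitted log2 difference of 0.60 ± 0.40 (edgeR adjusted p = 0.68). Gfap differed by -0.31 ± 0.77 (adjusted p = 0.92 by edgeR). Both edgeR and DESeq2 called 0 of 4 members, with 0% and 0.141% of all genes, and 0 members and 7.84% of all genes had an unadjusted edgeR p under 0.05. The fit gives 1 genotype effect over 0, 3 and 5 d, and the differences of single days were not tested.

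Slc1a2, the second glutamate transporter, gave 16 reads in all, in 9 of the 20 libraries. The highest were 5 reads (1.13 CPM) under CHIR99021 at 3 d ON and 4 reads (1.49 CPM) under Wnt3a at 5 d ON, and each of the other 7 libraries had 1 read. Those 7 were optoWnt at 0 d, Wnt3a at 3 d ON and at 1 d ON 1 d OFF, and the 4 remaining CHIR99021 libraries. All 5 CHIR99021 libraries thus had a read, while the 4 light libraries and the 4 unstimulated libraries of 3 and 5 d had none. At this depth no difference could be tested. Aqp4 had 0 of 73304126 reads, which allows up to 0.0409 CPM over the 20 libraries. This bound covers counting error only and takes the annotated 3′ ends as complete. Both genes were removed by the filter on low counts.

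Across the 20 libraries, the levels of the 4 tested members were related in either direction. Pearson's r of log2(CPM + 1) was -0.71 between Gfap and Slc1a3, 0.50 between Slc1a3 and Apoe, -0.51 between S100b and Slc1a3, 0.27 between Gfap and S100b, -0.20 between Gfap and Apoe and -0.35 between S100b and Apoe. The 0 d libraries carry much of this, and over the 18 later libraries the same pairs gave -0.43, -0.01, -0.04, -0.25, 0.38 and 0.09. These are descriptions over libraries that share depth and medium.

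The genes whose levels followed each member most closely over the 20 libraries were known here by ID only. For Gfap these were ENSRNOG00000007597 (r = 0.899 of log2(CPM + 1)) and ENSRNOG00000015941 (r = 0.892), among 12189 other genes kept. ENSRNOG00000054420 (r = 0.941) and ENSRNOG00000019057 (r = 0.914) followed S100b. For Slc1a3 they were ENSRNOG00000018615 (r = 0.876) and ENSRNOG00000050767 (r = 0.866), and for Apoe ENSRNOG00000002412 (r = 0.804) and ENSRNOG00000020792 (r = 0.790).

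**Figure D4:**
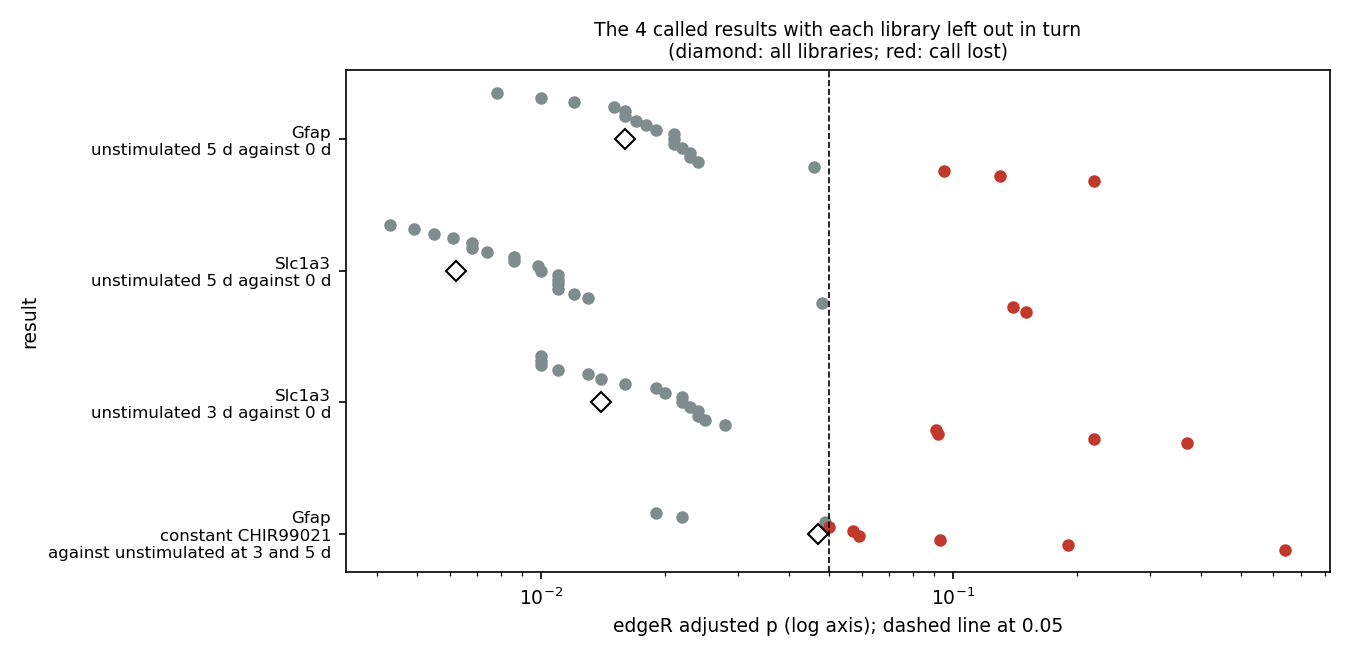
Adjusted p of the 4 called results (x axis, logarithmic) with each library left out in turn (points) and with all libraries (diamonds), by result (y axis); the dashed line is at 0.05 and red points are lost calls. Slc1a3 at 5 d kept its call in 18 of 20 fits, Gfap at 5 d in 17 of 20, Slc1a3 at 3 d in 16 of 20, and Gfap under constant CHIR99021 in 3 of 9. For the results against 0 d, most fits leave out a library outside the arms compared and say little of the call. With a library of its own arms left out, Slc1a3 at 3 d lost its call each time. Gfap at 5 d then kept it only without optoWnt 5 d, and Slc1a3 at 5 d only without optoWnt 0 d or optoWnt 5 d.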

How the data were processed

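The authors deposited whole-number counts of reads per gene for 32623 Ensembl IDs in 20 wells, and each well named in the labels was tied to its library. Per the labels, libraries were made with Lexogen's QuantSeq 3′ kit for low RNA input. The submitters' processing notes name Bowtie2, Subread, featureCounts and the build Rnor_6.0, with no versions, strand or multi-mapping settings. Counts of genes that overlap or have a near-identical copy are for that reason uncertain. There were 0 other per-sample columns.

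The members and lists were chosen with earlier results of these data known. All 6 members were described in every library. CPM is 1000000 times a gene's reads over the library's total. No ID of the count table matched the gene tables provided (0 matches), so marker lists given as symbols were not run. A floor is 3 counts (4.31 CPM in the shallowest library, 0.505 in the deepest). The 2 genes most alike each member with a median of at least 10 reads are named by Pearson's r of log2(CPM + 1).

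Tests used edgeR 4.0.16 (R 4.3.3, limma 3.58.1), quasi-likelihood, with TMM scaling and filterByExpr by profile. An additive model of profile, genotype and inducer (11 coefficients) was fitted to 20 libraries and 12190 genes with 9 residual degrees of freedom. Effects of each inducer under constant stimulation came from 9 libraries of 3 and 5 d (terms for day, genotype and inducer; 11566 genes; 3 degrees of freedom). No light library of 5 d ON exists among the 20, so the 5 d part of estimates over 3 inducers is extrapolated by the additive model. P-values were adjusted by Benjamini-Hochberg over all genes tested, with a threshold of 0.05, and a gene past it is called. The SE of a log2 change is that change over the root of its F statistic. The labels do not say whether libraries are separate cultures, so p-values measure the spread between these libraries, which may be technical and includes any response that differs between inducers. Libraries of 1 profile correlated at r = 0.794 to 0.975 over genes (16 pairs), and none agreed within sampling noise.

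Scripts were tested on simulated data. The alternatives were library totals without TMM, no low-count filter, leaving out the 6 libraries low on the first component (log2 CPM, prior count 2), that component as a covariate, only the libraries compared, DESeq2 1.42.0, and each library left out.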

Additional observations from a re-analysis of the deposited data

Results flagged for a closer look

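Apoe in the light library of 3 d ON, at 6.61 CPM (16 reads), stood apart from the other 4 constantly stimulated libraries, which lay between 3.62 and 4.08 CPM. Its counting interval (3.78 to 10.7 CPM) overlapped those of the other 4. The 5 libraries differ in inducer and day and are not replicates. With only 1 light library among them, an effect of light and an outlying library cannot be told apart. The gap was 0.848 of the range of the 5 libraries, above Dixon's 95% critical value of 0.710. It was the 1 such case in 20 sets of 4 or 5 libraries examined over the 4 tested members, and chance gives about 1 in 20. The library is also 1 of the 6 that stood apart on the first principal component, and the part of this in the Apoe value was not tested.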

How the results depend on the processing

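No paired analysis was possible because the labels carry no replicate numbers. Libraries match across profiles by genotype and inducer only, and both are terms of the additive fit. The number of the 4 members called at 5 d against 0 d (2) was 3 without TMM and without the low-count filter, where S100b was gained (adjusted p = 0.037 and 0.014 by edgeR), 4 with the first component as a covariate and with DESeq2, and ran from 0 to 3 with 1 library left out. At 3 d against 0 d (1) it was 3 without the low-count filter, with the covariate and with DESeq2, 2 without the 6 libraries that stood apart, and 0 to 2 with 1 left out. Under constant CHIR99021 (1) it was 0 without TMM, 2 without the filter, without the libraries that stood apart and with DESeq2, and 0 to 2 with 1 left out. For constant CHIR99021 against Wnt3a (0) it was 1 without the filter, without the libraries that stood apart and with only the libraries compared, 2 with DESeq2, and 0 to 1 with 1 left out. For CHIR99021 against light over profiles (0) it was 1 without the filter and 2 with the covariate and with DESeq2. The number of all genes called moved as well. At 5 d (551) it was 551 without TMM, 661 without the filter, 1834 with the covariate and 1217 with DESeq2. At 3 d (252) it was 384 without the filter, 683 with the covariate and 612 with DESeq2. Under constant CHIR99021 (201) it was 154 without TMM, 639 without the filter and 607 with DESeq2. For CHIR99021 against light (170) it was 389 without the filter, 1145 with the covariate and 736 with DESeq2.

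Of 770 refits of 34 results for single genes, 755 kept their direction. The 34 are a selection. Gfap and S100b are in it for every comparison. Slc1a3 and Apoe are in it only for unstimulated days, constant stimulation over all inducers and constant CHIR99021. Small estimates were thus left out, such as Slc1a3 for 1 d ON 2 d OFF against unstimulated 3 d (0.02) and Apoe for 1 d ON 2 d OFF against 3 d ON (0.04). Many refits left out a library outside the arms compared, so the count says little of stability. The 15 that turned concerned estimates that were not called. With 1 library left out, Slc1a3 ran from -1.20 to 0.12 under constant stimulation and from -1.87 to 0.16 under constant CHIR99021, and S100b from -0.67 to 0.38 under constant Wnt3a. Likewise, 1 d ON 2 d OFF ran from 0.00 to 0.66 against unstimulated in S100b and from -0.67 to 0.77 against 3 d ON in Gfap, and Wnt3a against light from -0.17 to 0.81 in Gfap and from -0.46 to 0.01 in S100b. Without the libraries that stood apart, Gfap under constant Wnt3a was -0.16, Gfap for 1 d ON 2 d OFF against 3 d ON 0.06 (0.10 with only the libraries compared), and S100b for 1 d ON 2 d OFF against unstimulated -0.44 (-0.34 with the covariate). S100b under constant light was -0.18 with the covariate. The cause of these changes was not tested.

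Over the alternatives other than left-out libraries, genes called among all tested ran from 235 to 1834 at 5 d against 0 d (551), 138 to 683 at 3 d (252), 0 to 260 under constant stimulation (24), 154 to 1512 under constant CHIR99021 (201) and 31 to 1145 for CHIR99021 against light (170). Between CHIR99021 and Wnt3a they ran from 3 to 533 when constant (5) and from 0 to 145 over profiles (4). The ranges were 0 to 88 for constant Wnt3a (1), 0 to 108 for constant light (0), 0 to 43 for 1 d ON 2 d OFF against 3 d ON (0), 0 to 334 for Wnt3a against light (1) and 0 to 12 for genotype (0). Gfap at 0 d and Apoe and Slc1a2 throughout are limited by few reads.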
